A study of Mus musculus with 5 samples.

Results

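The cadherin and catenin genes described here were 10 members of a gene-level count table of 54636 rows from mouse cancer-associated fibroblasts (CAFs), taken by gene symbol: 6 cadherins (Cdh2, Cdh3, Cdh1, Cdh11, Cdh6 and Cdh13) and 4 catenins (Ctnnb1, Jup, Ctnna1 and Ctnnd1). Each member had exactly 1 row. Earlier results of these data were known when the members were chosen. The study used CAFs to ask how fibroblasts around a tumor compress cancer cells, and RNA of 5 CAF cultures was sequenced, with 1 library per condition. All cultures grew out of tumor tissue in mice, labelled as subcutaneous rectal tumor, and were immortalized with SV40. For tumors in the transgenic mice, the study's methods describe intestinal tumoroids of another mouse line injected into a fat pad of bone marrow recipients, so the tumor behind the label differed from that of the xenografts.

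Myosin IIA KO CAFs came from a Cre+ mouse and Cre- control CAFs from a mouse without Cre, and the labels give 2 µM tamoxifen in vitro for both. The line is αSMA-CreERT2; R26mT/mG; myosin IIAfl/fl, in which Cre acts only in cells that use the αSMA promoter, so cells with a low activity of that promoter can keep the floxed Myh9 gene. Fn1 siRNA CAFs, control siRNA CAFs (scrambled siRNA) and untreated CAFs, all of genotype WT, came from patient-derived xenografts (PDX), which were grown in athymic Nude mice. The labels name no separate cultures or animals behind any of the 5 libraries, so no value below has a replicate check and no p-value was computed. Library totals ranged over 22961620 to 26596351 counts. The targeted genes moved as labelled, with 435 CPM (counts relative to library size) of Myh9 in myosin IIA KO CAFs and 2474 CPM in Cre- control CAFs, and 1230 CPM of Fn1 with Fn1 siRNA and 4626 CPM with control siRNA. Of 11 fibroblast markers, 9 to 11 were at 1 CPM or more in each library, whereas of 10 epithelial markers 1 was, and Krt8, Cldn4, Grhl2 and Esrp1 had no count in any library.

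Classical cadherins are transmembrane adhesion molecules that bind a cadherin on the neighboring cell through calcium-dependent outer domains. On the inside, β-catenin or its relative plakoglobin binds the cadherin tail and recruits α-catenin, which links the complex to actin, while p120-catenin binds nearer the membrane and slows removal of the cadherin from the surface. Epithelia typically use E-cadherin, and fibroblasts typically use N-cadherin and cadherin-11. β-catenin also acts in Wnt signaling, where its protein, not its transcript, is degraded by a destruction complex.

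The upstream sequences of Jup and Ctnnb1 are shown because these catenins occupy the same place on the cadherin tail, while Jup differed between cultures of different origin and Ctnnb1 differed little. Each window runs from 250 bases before to 50 bases after a transcription start of RefSeq on GRCm38.p6, and capitals mark matches on either strand to CCAAT or GGGCGG. Jup is read from the minus strand at chr11:100397741-100398040, and Ctnnb1 from the plus strand at chr9:120933150-120933449, the first of its 2 starts.
Jup: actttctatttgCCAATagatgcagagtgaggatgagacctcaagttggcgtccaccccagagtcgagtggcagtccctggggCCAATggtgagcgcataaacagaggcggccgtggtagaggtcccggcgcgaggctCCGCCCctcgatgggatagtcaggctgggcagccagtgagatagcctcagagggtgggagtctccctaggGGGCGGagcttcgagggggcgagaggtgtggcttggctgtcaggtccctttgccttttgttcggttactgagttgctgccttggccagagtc
Ctnnb1: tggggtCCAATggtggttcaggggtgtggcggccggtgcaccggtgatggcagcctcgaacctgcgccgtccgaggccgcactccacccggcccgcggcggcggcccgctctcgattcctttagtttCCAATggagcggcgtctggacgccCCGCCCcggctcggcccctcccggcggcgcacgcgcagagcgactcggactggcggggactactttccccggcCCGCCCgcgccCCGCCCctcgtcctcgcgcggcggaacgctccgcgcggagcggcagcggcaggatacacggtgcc
The Jup window was 60.7% G or C with 14 CpG dinucleotides, against 75.3% and 46 CpG for Ctnnb1 and medians of 52.7% and 7 CpG over 32851 mouse windows. Both held 2 matches to CCAAT, a pentamer found in 37.4% of all windows, and the GGGCGG hexamer of 35.7% of windows matched at 2 places in Jup and 3 in Ctnnb1. Neither held TATAAA (13.6% of windows) or the E-box letters CAGGTG (20.2% of windows), although the second start of Ctnnb1 had 1 TATAAA. A match is a description of these letters, not a site or a cause. Windows were examined for 4 of the 10 members, namely Cdh6, Ctnnb1, Ctnnd1 and Jup, and not for the others.

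Levels are given as CPM after scaling all 5 libraries by TMM (trimmed mean of M values) when libraries are compared, and as RPKM (CPM per kilobase of gene length) when genes are compared. Intervals are 95% intervals that cover counting error only. Of the 10 members, 7 were at 1 CPM or more in every library, namely Cdh2, Cdh3, Cdh11 and all 4 catenins, Cdh13 was so in the 3 PDX libraries alone, and Cdh1 and Cdh6 were below 1 CPM throughout.

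**Figure D1:**
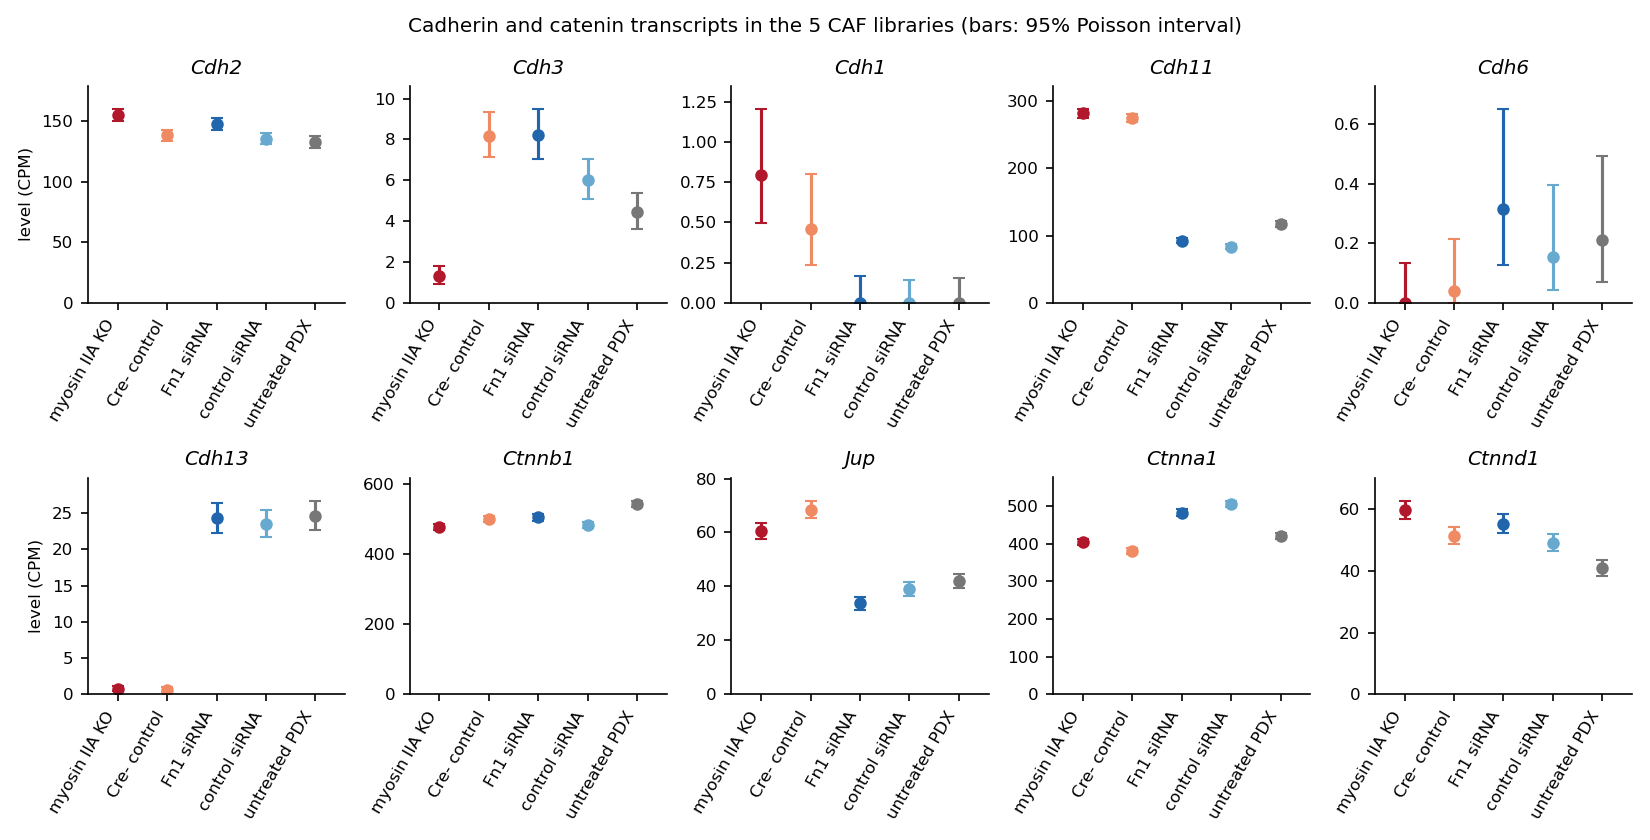
Level of each member in CPM, with 1 panel per gene and a vertical axis from 0 in each, in the 5 libraries (points, myosin IIA KO, Cre- control, Fn1 siRNA, control siRNA and untreated PDX from left to right), with exact Poisson 95% intervals as bars. Cdh2 and Ctnnb1 were nearly level across libraries, Cdh3 was lowest in the KO library at 1.30 CPM, and Cdh11 and Cdh13 separated the 2 transgenic-mouse libraries from the 3 PDX libraries.

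Cdh2, on chromosome 18 from 16588877 to 16809246 (mm10), encodes N-cadherin, the classical type I cadherin of mesenchymal cells. Its level was 155 CPM in myosin IIA KO CAFs, 138 CPM in Cre- control CAFs, 147 CPM with Fn1 siRNA, 135 CPM with control siRNA and 133 CPM in untreated PDX CAFs. The highest library was thus 1.17 times the lowest, and from the highest to the lowest level each interval overlapped the next, although those of KO and Cre- control CAFs, and of Fn1 siRNA and control siRNA CAFs, did not overlap each other. Per length Cdh2 was at 16.4 to 19.2 RPKM, above 73.6% to 78.6% of the genes at 1 CPM or more in the same library.

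Cdh3, on chromosome 8 from 106510891 to 106557297, encodes P-cadherin, another type I cadherin. It had 36 counts in myosin IIA KO CAFs, against 214 counts in Cre- control CAFs, and 182 counts with Fn1 siRNA, 156 counts with control siRNA and 105 counts in untreated PDX CAFs. These correspond to 1.30, 8.19, 8.20, 6.001 and 4.45 CPM in the same order of libraries. The KO library was the lowest of the 5, with an interval of 0.912 to 1.80 CPM that did not reach that of any other library. Even at its highest Cdh3 stood at 1.87 RPKM, and in the KO library at 0.297 RPKM.

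Cdh1, which encodes E-cadherin, starts 46.1 kb downstream of the end of Cdh3 and runs from 106603351 to 106670246 on chromosome 8. It had 22 counts in myosin IIA KO CAFs and 12 counts in Cre- control CAFs (0.796 and 0.459 CPM), and no count in the 3 PDX libraries. A count of 0 allows up to 0.115 to 0.135 CPM there (3 counts). Against that floor of 3 counts in untreated PDX CAFs, the observed level of Cdh1 was 6.27-fold higher in KO CAFs and 3.61-fold higher in Cre- control CAFs. With the counting error of both libraries, the 95% intervals of these 2 log2 ratios began lower, at 2.23 and 1.33. The summed level of 10 epithelial markers, of which 1 reached 1 CPM in each library, was 3.91 CPM in KO and 3.98 CPM in Cre- control CAFs. With Fn1 siRNA it was 10.4 CPM, with control siRNA 12.6 CPM and in untreated PDX CAFs 10.3 CPM. Single markers were mixed. Krt18 and Krt20 had no count in KO and Cre- control CAFs. Cldn7 had counts in both of these, but none with Fn1 siRNA or in untreated PDX CAFs. The part of epithelial cells in the Cdh1 counts was not tested.

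Cdh11, on chromosome 8 from 102632095 to 102785642, encodes cadherin-11, a type II cadherin known from fibroblasts and osteoblasts. It was at 282 CPM in myosin IIA KO CAFs and 275 CPM in Cre- control CAFs, and at 92.3 CPM with Fn1 siRNA, 83.3 CPM with control siRNA and 117 CPM in untreated PDX CAFs. The first pair had overlapping intervals and lay above all PDX libraries, among which untreated CAFs were highest. The other type II member, Cdh6 (chromosome 15, 13028701 to 13173675), was near the floor. It had no count in KO CAFs, 1 count in Cre- control CAFs, 7 counts with Fn1 siRNA, 4 counts with control siRNA and 5 counts in untreated PDX CAFs. The intervals of these levels all overlapped, but that of the log2 ratio of KO over untreated PDX CAFs ended at -0.10.

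Cdh13, on chromosome 8 from 118283733 to 119324921, encodes T-cadherin, which is held in the membrane by a GPI anchor, has no tail for catenins and is known as a receptor for adiponectin. Its counts were 20 in myosin IIA KO CAFs and 17 in Cre- control CAFs, against 539 with Fn1 siRNA, 611 with control siRNA and 582 in untreated PDX CAFs. In CPM this was 0.723 and 0.650 in the transgenic-mouse cultures, and 24.3, 23.5 and 24.6 in the PDX cultures. The highest level was 37.9 times the lowest, the widest range of the 8 members with a count in every library, and within each origin the intervals overlapped.

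The catenins Ctnnb1 and Ctnna1 were more abundant per length than any of the member cadherins. Ctnnb1, which encodes β-catenin (chromosome 9, 120929216 to 120960507), was at 479 CPM in myosin IIA KO CAFs, 502 CPM in Cre- control CAFs, 506 CPM with Fn1 siRNA, 483 CPM with control siRNA and 544 CPM in untreated PDX CAFs. It spanned 1.13 times, the narrowest range of these 8 members, and lay above 96.0% to 96.8% of expressed genes per length. Of its exon bases, 15.1% overlap other genes, chiefly Ulk4 on the opposite strand, which had 91 to 169 counts. Ctnna1, the gene of αE-catenin (chromosome 18, 35118888 to 35254773), was at 404 CPM in KO CAFs, 380 CPM in Cre- control CAFs, 483 CPM with Fn1 siRNA, 505 CPM with control siRNA and 420 CPM in untreated PDX CAFs. No intervals overlapped among these 5 levels, with both siRNA libraries at the top, yet the whole range was 1.33 times.

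Jup, which encodes plakoglobin (chromosome 11, 100368958 to 100397763), an armadillo protein of both adherens junctions and desmosomes, was at 60.5 CPM in myosin IIA KO CAFs and 68.5 CPM in Cre- control CAFs. In PDX CAFs it was at 33.7 CPM with Fn1 siRNA, 39.0 CPM with control siRNA and 42.1 CPM without transfection. Both transgenic-mouse cultures were above the 3 PDX cultures, and the highest level was 2.03 times the lowest. Ctnnd1, which encodes p120-catenin (chromosome 2, 84600071 to 84650765), was at 59.7 CPM in KO CAFs, 51.4 CPM in Cre- control CAFs, 55.3 CPM with Fn1 siRNA, 49.0 CPM with control siRNA and 40.9 CPM in untreated PDX CAFs, where it was lowest. The level of Ctnnd1 is uncertain, since 61.2% of its exon bases are shared on the same strand with the gene model Gm28635, which had 0 counts in all 5 libraries. Over the 2837 bases shared with no other gene, its counts would give 14.4 to 21.05 RPKM, against 5.59 to 8.16 RPKM over the full length.

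The cadherin that led the sum differed between cultures of different origin. Summed over the 6 cadherins, the level was 51.4 RPKM in myosin IIA KO CAFs, 50.0 RPKM in Cre- control CAFs, 32.7 RPKM with Fn1 siRNA, 29.6 RPKM with control siRNA and 32.8 RPKM in untreated PDX CAFs. Cdh11 made up 61.6% of this sum in KO CAFs and 61.7% in Cre- control CAFs, against 31.7%, 31.6% and 40.1% in Fn1 siRNA, control siRNA and untreated PDX CAFs. Cdh2 made up 37.4% and 34.2% in the transgenic-mouse cultures and 55.9%, 56.6% and 50.1% in the PDX cultures, so the leading cadherin transcript was Cdh11 in the 2 libraries of one origin and Cdh2 in the 3 of the other. Per length, Cdh11 was 1.65 times Cdh2 in KO CAFs (95% interval 1.59 to 1.71), 1.80 times in Cre- control CAFs (1.73 to 1.88), 0.568 times with Fn1 siRNA (0.537 to 0.600), 0.558 times with control siRNA (0.529 to 0.589) and 0.800 times in untreated PDX CAFs (0.760 to 0.843). Cdh13 took 0.125% and 0.116% of the cadherin sum in KO and Cre- control CAFs, and 6.61%, 7.07% and 6.69% in the PDX cultures.

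**Figure D2:**
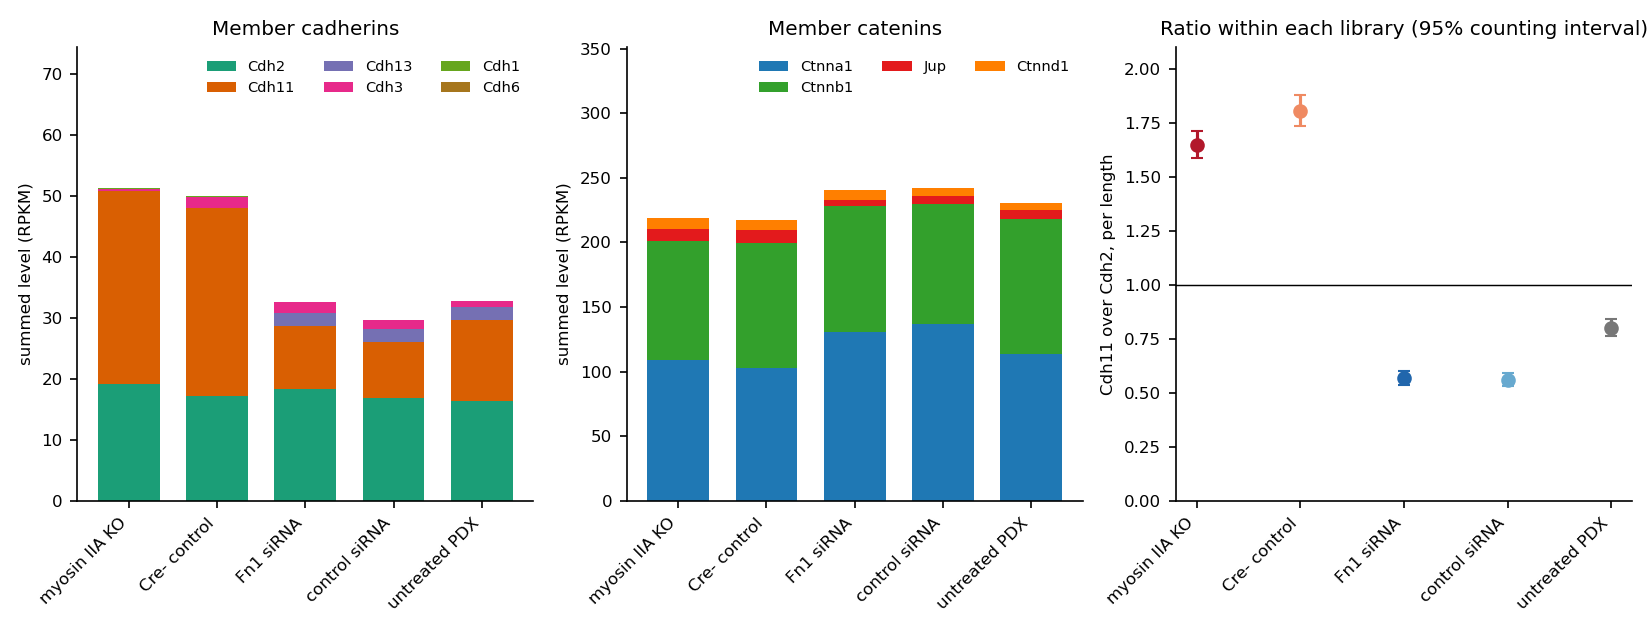
Summed levels of the member cadherins (left) and catenins (middle) in RPKM by library, with colors for genes, and the per-length ratio of Cdh11 to Cdh2 within each library with its 95% counting interval (right, line at a ratio of 1). The cadherin sum was 50.0 to 51.4 RPKM in the transgenic-mouse cultures and 29.6 to 32.8 RPKM in the PDX cultures, with Cdh11 above Cdh2 in the first 2 libraries alone.

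The 4 catenins together were at 219 RPKM in KO CAFs, 217 RPKM in Cre- control CAFs, 241 RPKM with Fn1 siRNA, 242 RPKM with control siRNA and 230 RPKM in untreated PDX CAFs. The catenin sum was 4.26 and 4.34 times the cadherin sum in KO and Cre- control CAFs, and 7.36, 8.19 and 7.02 times in the PDX cultures. Among the catenins that bind the cadherin tail at the shared site, Ctnnb1 was 9.81 times Jup per length in KO CAFs and 9.08 times in Cre- control CAFs, against 18.6 times with Fn1 siRNA, 15.3 times with control siRNA and 16.0 times in untreated PDX CAFs. Ctnnb1, at 92.3 to 105 RPKM, was 0.681 to 0.941 times Ctnna1. That last ratio, and the catenin sums, rest on the table's length of 3698 bases for Ctnna1, where the exons of GENCODE M21 cover 6425 bases. With the longer length Ctnna1 would be at 59.1 to 78.6 RPKM instead of 103 to 137 RPKM, and Ctnnb1 would be 1.18 to 1.63 times Ctnna1, so the order of the 2 genes turns in every library. The lengths of 98.0% of genes in both sources were the same.

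The myosin IIA KO library was compared with the Cre- control library to see which junction genes differed where Myh9 was lowered. Myh9 was not absent from the KO library, at 435 CPM against 2474 CPM. Of the 7 members that reached 1 CPM in either library, 1 was over 2-fold apart, against 5.02% of all 13360 genes compared. That gene was Cdh3, at 36 against 214 counts, 6.21-fold lower in KO CAFs (log2 ratio -2.64, 95% interval -3.20 to -2.14), and 14 of the 13360 genes had a lower ratio. The other 6 members lay close together. Their log2 ratios were 0.17 for Cdh2, 0.03 for Cdh11, 0.09 for Ctnna1, -0.07 for Ctnnb1, 0.22 for Ctnnd1 and -0.18 for Jup, of which those of Cdh2, Ctnna1, Ctnnb1, Ctnnd1 and Jup had intervals that left out 0. The sign of Ctnnb1 turned to a log2 ratio of 0.01 when library totals were used for scaling. Against untreated PDX CAFs, which differ in origin as well, KO CAFs were at 0.53 for Jup and -0.06 for Ctnna1, both with turned signs.

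Genes within 500 kb of Cdh3 were compared in the same way. The nearest of these 19, Gm10073 at 15669 bases, was also lower in KO CAFs, at 4.92 CPM against 9.002 CPM in Cre- control CAFs (log2 ratio -0.87). The median of the 19 was -0.08, and their log2 ratios ran from -1.59 to 0.42. The pseudogene Gm16209, at 480183 bases, was at -0.92 from low levels of 0.592 CPM against 1.14 CPM. Only 1 gene was over 2-fold apart, the sphingomyelinase gene Smpd3, lower in KO CAFs at -1.59 (1.48 CPM against 4.50 CPM). Cdh1, the neighboring cadherin, had 22 counts in KO CAFs against 12 counts in the Cre- control, and the interval of its log2 ratio included 0 (-0.28 to 1.94). Several marker lists also differed between these 2 libraries. The summed level of 9 adipocyte markers was 3508 CPM in KO and 976 CPM in Cre- control CAFs, that of 7 smooth muscle and pericyte markers was 343 and 691 CPM, and that of 6 keratinocyte markers, a cell type known for P-cadherin, was 3.94 and 4.71 CPM, with Krt14 and Krt1 at 0 in both. The mitochondrial share was 1.55% in the KO library and 1.04% in the Cre- control library. The part of these differences in the ratio of Cdh3 was not tested, and in such bulk libraries fewer cells with a transcript and less of it per cell cannot be told apart.

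**Figure D3:**
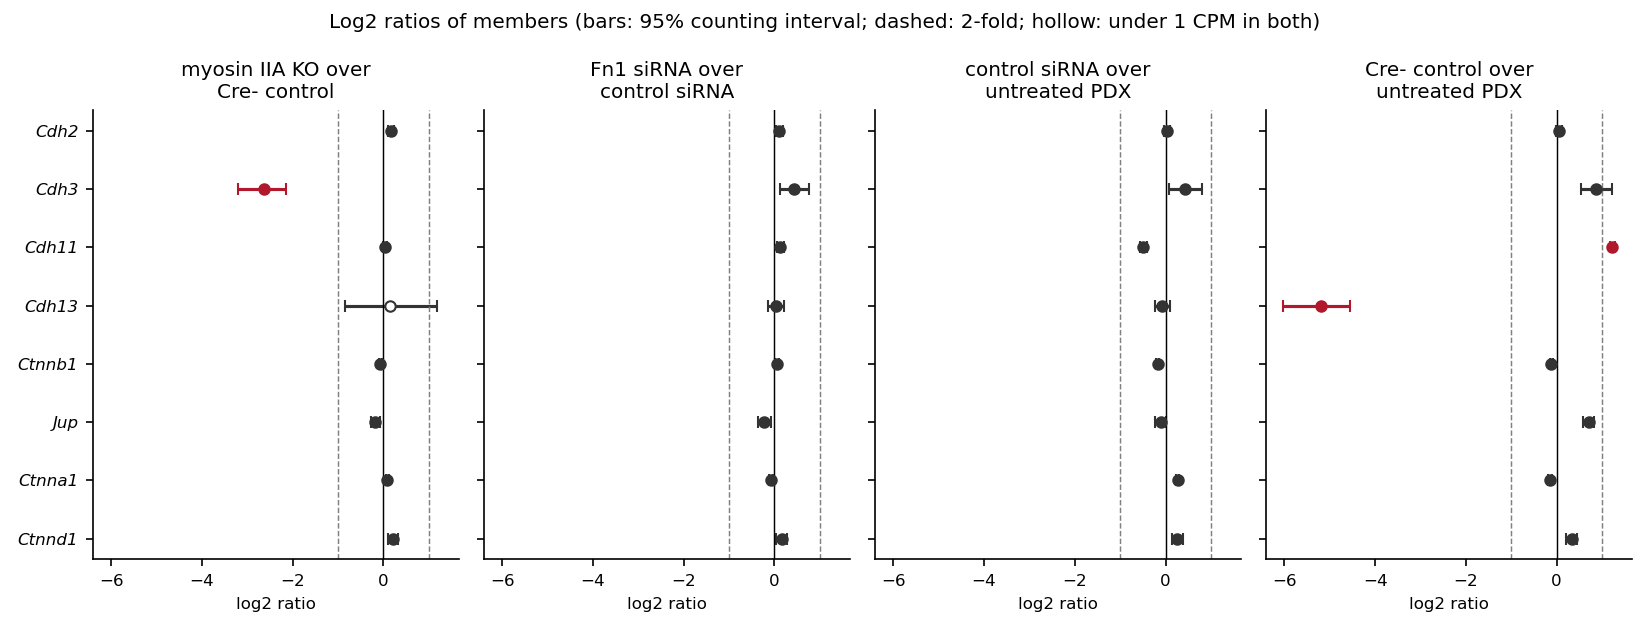
Log2 ratios of 8 members in the 4 comparisons (first-named library over the second), with exact 95% counting intervals as bars, dashed lines at 2-fold, red for members over 2-fold and a hollow point for Cdh13 where it was under 1 CPM in both libraries. Only Cdh3 at -2.64 in KO over Cre- control, and Cdh11 at 1.23 and Cdh13 at -5.20 in Cre- control over untreated PDX CAFs, lay beyond 2-fold.

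The Fn1 siRNA library was compared with the control siRNA library to see which members differed when fibronectin was depleted. None of the 8 members compared was over 2-fold apart, against 0.834% of all 12943 genes. Cdh2 was at 147 CPM with Fn1 siRNA and 135 CPM with control siRNA, a log2 ratio of 0.11 (95% interval 0.04 to 0.18), and Cdh11 had a ratio of 0.13 (0.05 to 0.22). The ratios farthest from 0 were those of Cdh3, at 182 against 156 counts and a log2 ratio of 0.44 (0.12 to 0.75), and of Jup, at 749 against 1014 counts and -0.22 (-0.36 to -0.08). Among the cadherins, Cdh2, Cdh3 and Cdh11 had intervals above 0, and that of Cdh13 (-0.14 to 0.20) included 0. Of the catenins, Ctnnb1 and Ctnnd1 were above 0 and Ctnna1 and Jup below. Against untreated PDX CAFs, which also differ by transfection, Cdh11 (-0.35), Cdh13 (-0.02) and Ctnnb1 (-0.11) turned below 0 and Ctnna1 (0.20) above it.

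Control siRNA CAFs were set against untreated PDX CAFs, which differ by the transfection with a scrambled siRNA. None of the 8 members compared was over 2-fold apart, against 5.71% of all 13125 genes. The largest difference was in Cdh11, at 83.3 CPM with control siRNA and 117 CPM without, a log2 ratio of -0.49 (95% interval -0.57 to -0.41). Ctnna1 at 0.27 and Ctnnd1 at 0.26 were higher with control siRNA, Ctnnb1 at -0.17 was lower, and the interval of Cdh2 (-0.04 to 0.10) included 0. For Cdh3 the log2 ratio was 0.43 (0.07 to 0.80). This control siRNA library also serves as the reference for Fn1 siRNA, so the values of the members in the 2 comparisons share 1 library.

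The widest differences among members were between Cre- control CAFs and untreated PDX CAFs, neither of which had a knockout or a knockdown. These cultures differ in mouse line, host, tumor and tamoxifen, which cannot be told apart. Of 8 members compared, 2 were over 2-fold apart, a share near the 19.4% of all 13577 genes. Cdh13 was 36.8-fold lower in Cre- control CAFs (log2 ratio -5.20, 95% interval -6.03 to -4.55), and 76 of the 13577 genes had a lower ratio. Cdh11 was 2.35-fold higher in Cre- control CAFs, a log2 ratio of 1.23 (1.17 to 1.30). Below 2-fold, Cdh3 was at 0.88 (0.54 to 1.23), Jup at 0.70 (0.59 to 0.82) and Ctnnd1 at 0.33, while Cdh2 at 0.06, Ctnnb1 at -0.12 and Ctnna1 at -0.15 lay nearest 0.

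Myosin IIA KO CAFs, from the same mouse line, had log2 ratios of 1.27 for Cdh11 and -5.05 for Cdh13 against untreated PDX CAFs, and share the untreated library with the comparison above. Genes near Cdh13 did not share its low level in the transgenic-mouse cultures. Within 500 kb of the gene, 9 genes were compared between Cre- control and untreated PDX CAFs, with log2 ratios of -0.54 to 0.17 and none over 2-fold apart. The nearest of them, the heat shock factor binding protein gene Hsbp1 at 19567 bases, had a ratio of 0.17. Summed endothelial markers, for a cell type known to use T-cadherin, were at 8.57 CPM in Cre- control and 5.97 CPM in untreated PDX CAFs, with Emcn and Cldn5 at 0 in both. Of 11 fibroblast markers, for a cell type known for cadherin-11, 11 and 9 were at 1 CPM or more in these libraries. Their sums were 60283 and 28399 CPM, which are transcript levels and not shares of cells. Schwann cell markers were at 4.51 and 1.36 CPM. Smooth muscle and pericyte markers were at 691 and 195 CPM, and adipocyte markers at 976 and 556 CPM in the same libraries, and their part in the ratios of Cdh11 and Cdh13 was not tested.

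For the 3 members at 10 CPM or more in a library whose level spanned over 2-fold, the genes with the most similar pattern were sought among 9839 protein-coding genes, by the root mean square difference of centered log2 CPM over the 5 libraries. With 5 points, many genes come close, so these are descriptions. The nearest to Cdh11 were Fcgrt, the neonatal Fc receptor gene (difference 0.06, at 154 CPM in KO, 138 CPM in Cre- control, 51.8 CPM with Fn1 siRNA, 43.1 CPM with control siRNA and 61.3 CPM in untreated PDX CAFs), Izumo4 (0.06) and Asap3 (0.06). Nearest to Jup were Slc2a8, Kbtbd7 and Zscan26 (0.03 to 0.05). Nearest to Cdh13 were Krt80 (0.17), the cyclin-dependent kinase gene Cdk6 (0.20) and Eno1b (0.22), all low in the 2 transgenic-mouse libraries. Cdk6 was at 0.904 CPM in KO and 1.11 CPM in Cre- control CAFs, and at 29.2, 34.3 and 28.5 CPM with Fn1 siRNA, with control siRNA and in untreated PDX CAFs. Eno1b is a close copy of Eno1, so its counts depend on how reads shared between copies were assigned.

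Other genes of the junction were taken from 8 lists. Of 27 further cadherins, among them the atypical Fat, Dachsous and Celsr genes, 5 to 9 were at 1 CPM or more in each library, and 3 were at 10 CPM or more. Fat1, an atypical cadherin with a very long outer part, led at 67.8 RPKM in myosin IIA KO CAFs, 63.9 RPKM in Cre- control CAFs, 45.6 RPKM with Fn1 siRNA, 43.8 RPKM with control siRNA and 31.3 RPKM in untreated PDX CAFs, above the sum of all 6 member cadherins in every library except untreated PDX. It was followed by Cdh24 at 5.01 to 10.6 RPKM and Fat4 at 3.03 to 4.001 RPKM. In KO over Cre- control CAFs, 1 of 6 of these genes compared was over 2-fold apart, beside 5.02% of all genes. That gene was Celsr3, at 31 against 6 counts (log2 ratio 2.20, 95% interval 1.01 to 3.84). The list median was 0.20 beside -0.01 over all genes.

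Between Cre- control and untreated PDX CAFs, 6 of 9 further cadherins were over 2-fold apart, beside 19.4% of all genes. Fat1 (1.03, and 0.99 when scaled by library totals) and Cdh24 (1.07) were higher in Cre- control CAFs. Cdhr1 (-1.12) was lower, and low-count Fat2 (2 against 30 counts), Dchs1 (1 against 39) and Cdh18 (0 against 41, at least 15.1-fold) were lower as well. The median log2 ratio was -0.68, also with Cdh18 set at that bound, beside -0.03 over all genes. Between control siRNA and untreated PDX CAFs 4 of 9 were over 2-fold apart, beside 5.71% of all genes, with a list median of -0.38 beside -0.01 over all genes, Fat2 higher (91 against 30 counts) and Cdh18, Cdh26 and Dchs1 lower, none of which reached 4 CPM in either library.

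Among 9 further catenins and armadillo relatives, 4 were at 1 CPM or more in every library. None was over 2-fold apart between KO and Cre- control or Fn1 siRNA and control siRNA CAFs, beside 5.02% and 0.834% of all genes. The desmosomal plaque gene Pkp2 (plakophilin-2) was at 2.40 RPKM in KO CAFs, 3.95 RPKM in Cre- control CAFs, 17.2 RPKM with Fn1 siRNA, 17.0 RPKM with control siRNA and 9.67 RPKM in untreated PDX CAFs, with a log2 ratio of -1.29 in Cre- control over untreated PDX CAFs. Of 10 desmosome genes, Pkp2 was the only one at 10 CPM or more in any library. Dsp, the desmoplakin gene that joins plakoglobin to intermediate filaments, had 1 count in Cre- control and 69 counts in untreated PDX CAFs. Jup and these desmosome genes thus ran in opposite directions between the 2 origins, with Jup higher and Pkp2 and Dsp lower in Cre- control CAFs.

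The actin linkers and nectins of adherens junctions were abundant, 14 or 15 of 16 being at 1 CPM or more in each library. The α-actinin genes Actn4 (136 to 216 RPKM) and Actn1 (96.1 to 203 RPKM) led, followed by zyxin (Zyx, 74.2 to 174 RPKM) and Vasp (60.7 to 91.1 RPKM), which promotes actin filament elongation. None of 15 was over 2-fold apart in KO over Cre- control CAFs, beside 5.02% of all genes, although the highest log2 ratio, 0.99, lay just under 2-fold. Of the 15, 10 had ratios below 0, and the list median was -0.30 beside -0.01 over all genes. In control siRNA over untreated PDX CAFs, 12 of 14 had ratios above 0, with a median of 0.45 beside -0.01 over all genes. None of these was over 2-fold apart, beside 5.71% of all genes. In Cre- control over untreated PDX CAFs, 1 of 14 was over 2-fold lower, beside 19.4% of all genes over 2-fold, and the median was 0.18.

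**Figure D4:**
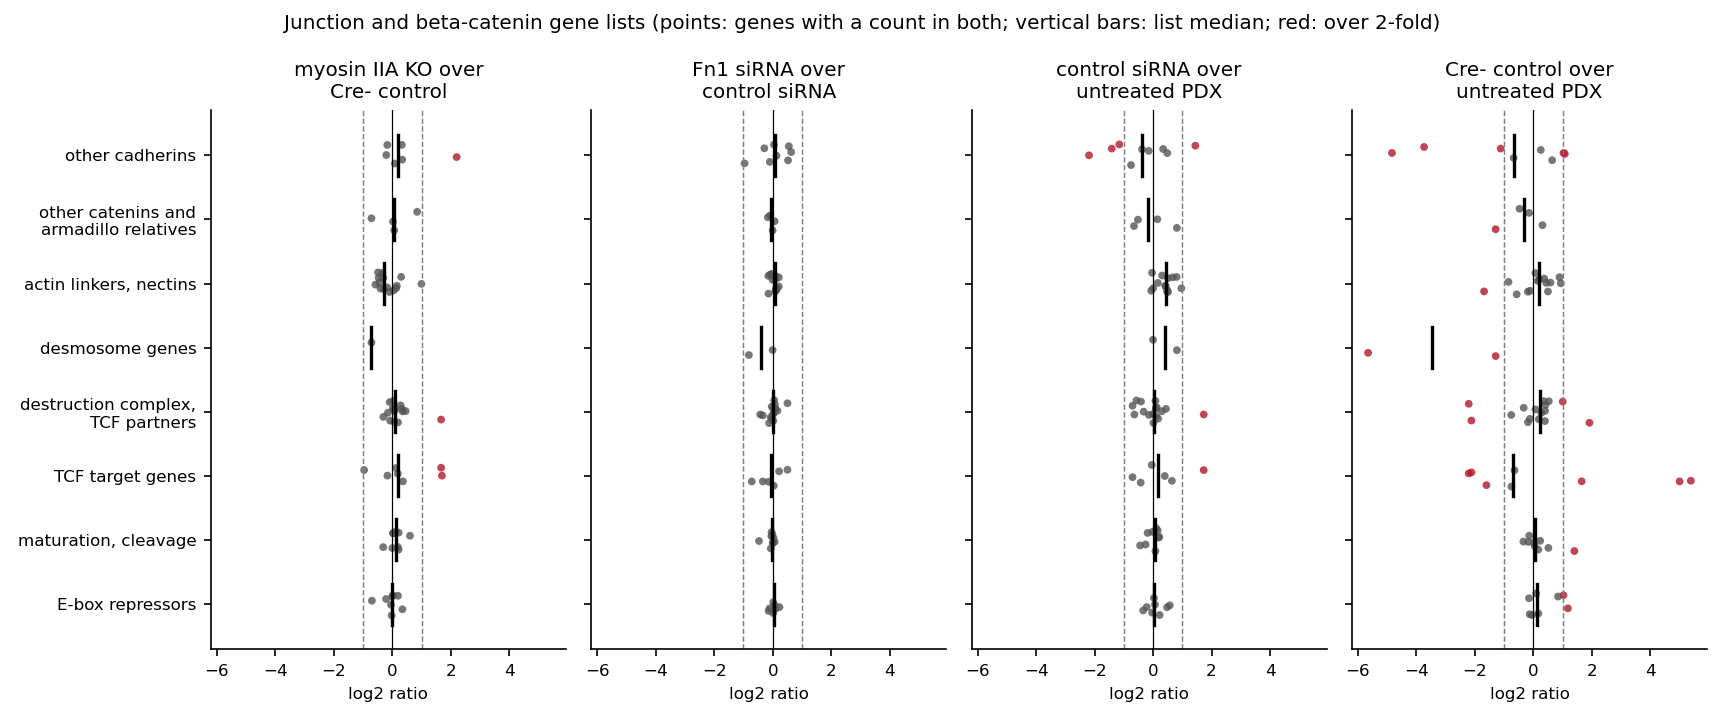
Log2 ratios of the genes of 8 junction and β-catenin lists (rows) in the 4 comparisons (panels), with 1 point per gene compared that had a count in both libraries, red beyond 2-fold, and vertical bars for the median of each list. No gene of any list passed 2-fold in Fn1 siRNA over control siRNA, where 0.834% of all genes did. Most red points were in Cre- control over untreated PDX CAFs.

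The genes that handle β-catenin protein were mostly within 2-fold in the knockout and knockdown comparisons, as were most of all genes compared. Of 17 genes of the destruction complex and TCF partners, 14 were at 10 CPM or more in each library, with Bcl9l at 22.7 to 39.3 RPKM, Csnk1a1 at 29.9 to 36.05 RPKM, and Axin1 at 19.8 to 29.2 RPKM the highest. In KO over Cre- control CAFs, 1 of 15 passed 2-fold, beside 5.02% of all genes, and the list median was 0.07. That gene was Axin2, at 28 against 8 counts (log2 ratio 1.67, 95% interval 0.55 to 3.07). Axin2 and Notum, a secreted Wnt inhibitor with 56 against 16 counts (1.70), were the 2 genes over 2-fold among 7 β-catenin/TCF target genes compared there, and both were at most 2.07 CPM. With Fn1 siRNA over control siRNA, none of 16 partners and none of 6 targets passed 2-fold, beside 0.834% of all genes.

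Between Cre- control and untreated PDX CAFs the same lists had genes over 2-fold in both directions, beside 1494 higher and 1141 lower among all 13577 genes. Tcf7l2 (1.92) and Tcf7l1 (1.00, and 0.96 when scaled by library totals), DNA-binding partners of β-catenin, were over 2-fold higher in Cre- control CAFs, and their relatives Tcf7 (12 against 52 counts) and Lef1 (8 against 33 counts) were lower. Of 8 target genes compared, 3 were higher, namely Lgr5 at 253 against 5 counts, Nkd1 at 229 against 6 counts and Nkd2 at 505 against 145 counts, and 3 were lower, Notum, Lef1 and Tcf7. The highest target by level, the Wnt inhibitor gene Apcdd1, was at 6.38 RPKM in KO CAFs, 12.5 RPKM in Cre- control CAFs, 18.4 RPKM with Fn1 siRNA, 15.7 RPKM with control siRNA and 20.98 RPKM in untreated PDX CAFs. Lef1 was also higher with control siRNA than in untreated PDX CAFs (122 against 33 counts, log2 ratio 1.73).

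Genes that process cadherins were all at 1 CPM or more in each library, with Adam10, the protease that sheds cadherin outer domains, at 32.4 to 38.3 RPKM, and the γ-secretase subunit genes Ncstn at 31.5 to 36.8 RPKM and Aph1a at 26.3 to 35.9 RPKM. Of the 9, Psen2 alone passed 2-fold, in Cre- control over untreated PDX CAFs (1.40), where 19.4% of all genes did. In KO over Cre- control CAFs the list median was 0.12. Of 9 repressors known to bind E-box sequences of the Cdh1 promoter, 8 were at 10 CPM or more in each library. Snai2 was at 68.0 RPKM in KO and 67.04 RPKM in Cre- control CAFs, against 35.8, 30.2 and 29.6 RPKM with Fn1 siRNA, with control siRNA and in untreated PDX CAFs, and Snai1 was at 72.7 and 63.7 RPKM, against 45.9, 43.5 and 31.2 RPKM. Between Cre- control and untreated PDX CAFs, 2 of the 8 repressors compared were over 2-fold apart, beside 19.4% of all 13577 genes. These were Snai2 (1.18) and Snai1 (1.03, and 0.98 when scaled by library totals), both higher in Cre- control CAFs. The list median was 0.13, and 3 of the 8 had ratios below 0. Twist1 was at 51.5 to 59.8 RPKM and Tcf3 at 39.1 to 45.6 RPKM in the 5 libraries.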

How the data were processed

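The authors deposited raw counts per gene for the 5 libraries in 1 table, with gene lengths, and the submitters' processing notes name mm10. Aligner, counter, annotation and strand setting: not given in the sources used here. Counts of genes that overlap or have close copies are therefore uncertain. GENCODE M21 held 54495 of the identifiers (98.33% at the same coordinates). The 104 rows without a gene name, under 0.06% of counts, stayed in the totals.

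Counts were scaled by TMM in edgeR 4.0.16 (R 4.3.3), pair by pair where ratios were formed and jointly where levels were, using Python 3.11.15, numpy 2.4.6, pandas 2.3.3, scipy 1.17.1 and matplotlib 3.10.9. A prior count of 0.5, proportional to library size, entered each log2 ratio, and genes had to reach 1 CPM in either library of the pair. The 95% intervals were exact binomial (ratios) or exact Poisson (levels) and cover counting error only. Those of ratios were run on simulated Poisson counts, the model they assume, which tells nothing of variation between cultures. A count of 0 was read as up to 3 counts, or 0.108 to 0.135 CPM. With 1 library per condition the study's adjusted p-value could not be used, and its fold threshold of 2 was applied alone. No test between conditions was run.

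The members and lists were chosen with earlier results of these data known. All 188 list symbols were found, and Pkp1, Pkp2, Pkp3, Axin2, Lef1 and Tcf7 stand in more than 1 pathway list. Named genes were the members, list genes over 2-fold or else the highest by RPKM (up to 4 per list), and the 3 genes most like each variable member. Smpd3, Gm10073, Gm16209 and Hsbp1 were chosen after their values were seen, and 1 gene under the rule is not reported here. Promoter windows were matched by symbol. Alternatives were scaling by totals, by upper quartiles or by DESeq2 1.42.0, a prior of 5 counts, a minimum of 10 CPM or none, only protein-coding genes, a threshold of 1.5-fold or with the whole interval past 2-fold, and the untreated PDX library as the control. The M21 length was added after seeing the data.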

Additional observations from a re-analysis of the deposited data

How the results depend on the processing

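No paired analysis was possible because each condition had 1 library, and for the same reason no library could be left out. Among member log2 ratios, 155 values under other scalings moved by at most 0.0738, with 2 signs turned, Ctnnb1 in KO over Cre- control (0.01) and Cdh2 in control siRNA over untreated PDX (-0.04), both by library totals. With untreated PDX CAFs as the control, which changes the comparison itself, 15 values moved by up to 1.23 and 6 signs turned, namely Jup (0.53) and Ctnna1 (-0.06) for KO and Cdh11 (-0.35), Cdh13 (-0.02), Ctnna1 (0.20) and Ctnnb1 (-0.11) for Fn1 siRNA. The call of Cdh3 rests on 36 and 214 counts, and the count of members over 2-fold between KO and Cre- control CAFs was 0 with a filter of 10 CPM, which drops Cdh3, 2 without a filter, which adds Cdh6 from 0 and 1 counts, and 3 with untreated PDX CAFs as the control. Between Cre- control and untreated PDX CAFs it was 4 without a filter and 4 at 1.5-fold. The 7 members at 1 CPM or more throughout and the 2 libraries with Cdh11 above Cdh2 were the same under the alternatives run. Over all genes, the shares over 2-fold were 27.2%, 23.3%, 27.7% and 38.8% without a filter and 2.40%, 0.140%, 2.71% and 12.3% with 10 CPM, in the order KO over Cre- control, Fn1 siRNA over control siRNA, control siRNA over untreated and Cre- control over untreated PDX CAFs.

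Calls over the 4 comparisons together, counting a gene once per comparison, changed as follows. Other cadherins (11 calls) had 10 with totals, where Fat1 fell under 2-fold, 9 with 5 counts added, 29 without a filter, 2 at 10 CPM and 6 with the whole interval beyond 2-fold. Other catenins (1) had 10 without a filter, 5 at 1.5-fold and 2 with the untreated control. Actin linkers and nectins (1) had 2 with DESeq2 factors, 2 with totals, 8 at 1.5-fold and 4 with the untreated control. Desmosome genes (2) had 15 without a filter, 1 at 10 CPM, 5 at 1.5-fold and 4 with the untreated control. Destruction complex genes (6) had 5 with totals, where Tcf7l1 fell under 2-fold, 4 with the whole interval beyond 2-fold, 2 at 10 CPM and 11 with the untreated control. TCF targets (9) had 16 without a filter, 1 at 10 CPM, 15 at 1.5-fold and 15 with the untreated control. Maturation genes (1) had 2 at 1.5-fold and 3 with the untreated control. Repressors (2) had 1 with totals, 4 without a filter, 1 with the whole interval, 4 at 1.5-fold and 5 with the untreated control.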
